A study of Homo sapiens with 18 samples.

Results

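Genes of the bone morphogenetic protein (BMP) pathway and the ID family were examined in 3 human lung cancer cell lines before and after epithelial-mesenchymal transition (EMT). The set was taken as the rows of the deposited table whose gene symbol equalled 1 of 10 names, and all 10 were found among the 19849 genes. It holds the ligands BMP2, BMP4, BMP6 and BMP7, the secreted BMP antagonist GREM1 (gremlin 1), the type I receptor BMPR1B and the transcription regulators ID1, ID2, ID3 and ID4. GREM1 and BMPR1B are thus neither ligands nor ID genes. 1 probe set stood for each gene, no filter on low values was applied, and all 10 genes were tested. The main pattern was a split between the lines. BMP2, BMP6 and GREM1 rose in mesenchymal A549 cells, while all 4 ID genes fell in mesenchymal HCC827 cells. In NCI-H358 cells ID2 and ID3 rose.

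The samples were 18 Affymetrix U133 Plus 2.0 arrays in 6 groups of 3, parental cells and TGFβ-induced mesenchymal cells of the lines A549, HCC827 and NCI-H358. All 3 are established non-small cell lung cancer lines. All cells were grown in RPMI1640 with serum and glutamine. Parental cells received no TGFβ, and the mesenchymal cells had been kept in 2 ng/ml TGFβ for 3 weeks by the labels, while the methods give ranges of weeks that differ between the lines. TGFβ was withdrawn the day before lysis, so the arrays show cells after long exposure and not an acute response. Each condition is 1 cell line in 1 state. The labels do not say whether the 3 arrays of a group came from separate cultures, while the study describes its array data as 3 separate biological samples made at 1 time. The p values therefore measure the spread between samples of 1 occasion.

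BMPs are secreted ligands of the TGFβ superfamily. They assemble type I receptors such as BMPR1B with the type II receptor BMPR2, and the activated receptors phosphorylate SMAD1, SMAD5 and SMAD9, whereas TGFβ itself acts mainly through SMAD2 and SMAD3. The ID genes are among the best known targets of the BMP SMADs. ID proteins have a helix-loop-helix domain but no basic region for DNA binding, and they capture E proteins such as TCF3, TCF4 and TCF12 in dimers that do not bind DNA. Gremlin 1 binds BMP ligands outside the cell and keeps them from their receptors. In the developing lung, BMP4 takes part in airway branching.

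The labels were first compared with the marker genes of the 2 states. CDH1, which encodes E-cadherin, fell in all 3 lines, with log2 changes of -5.81, -2.95 and -3.94 in A549, HCC827 and NCI-H358. CDH2 (N-cadherin) rose in all 3, by 1.94, 3.26 and 2.04 on the log2 scale. VIM (vimentin) and ZEB1 rose in HCC827 and NCI-H358, while their log2 changes in A549 of 0.79 each stayed under 2-fold. The lung lineage factor NKX2-1 had a mean log2 level of 3.67 in parental A549 but of 9.18 and 8.62 in the parental cells of HCC827 and NCI-H358, and it fell in NCI-H358 (-1.06). NAPSA, the other lung gene listed, had parental means of 5.91 and 6.02 in A549 and NCI-H358 but of 10.87 in HCC827. It fell in HCC827, the line in which the ID genes fell, with a log2 change of -4.71 (adjusted p = 1.59e-14, limma), and its part in those results was not tested. Of the epithelial list 3 of 5 genes fell in A549 and 5 of 5 in the other lines, and of the mesenchymal list 2 of 5 rose in A549 and 4 of 5 in the others. The leukocyte marker PTPRC lay between 2.83 and 3.18 in all 6 groups, near the lowest value in the table, 2.05. The other leukocyte genes lay higher, with group means from 5.39 to 5.61 for CD3E and from 4.40 to 5.76 for CD14. Of 3 leukocyte genes CD14 fell in A549 (-1.36), its part in the results was not tested, and neither of the 2 endothelial genes was called. Array medians lay between 6.31 and 6.47. The log2 differences between arrays of 1 group had a standard deviation of 0.163 to 0.282 over all genes.

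The first comparison asked which of the 10 genes changed upon EMT within each line. A change was called by limma in 1 fit of all 18 arrays, where the p adjusted over all genes (Benjamini-Hochberg) was below 0.05 and the levels differed by more than 2-fold. In A549 cells 3 of the 10 genes rose and 0 fell, where 4.15% of all genes rose and 3.87% fell. In HCC827 cells 1 gene rose and 4 fell, against 4.89% and 6.58% of all genes. In NCI-H358 cells 2 rose and 0 fell, against 3.96% and 5.42% of all genes. The 10 genes and the lists below were chosen with earlier results of these data known. The counts here and below therefore do not test an excess over the shares of all genes. Under the thresholds of the study, which ask for an adjusted p below 1e-05 and more than 5-fold, the calls in either direction were BMP2, BMP6 and GREM1 in A549 (1.90% of all genes), ID1, ID3 and ID4 in HCC827 (2.95%) and no member in NCI-H358 (2.17%). Each array read the RNA of a whole culture, so a change in every cell cannot be told apart from a change in the share of cells that express a gene.

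**Figure D1:**
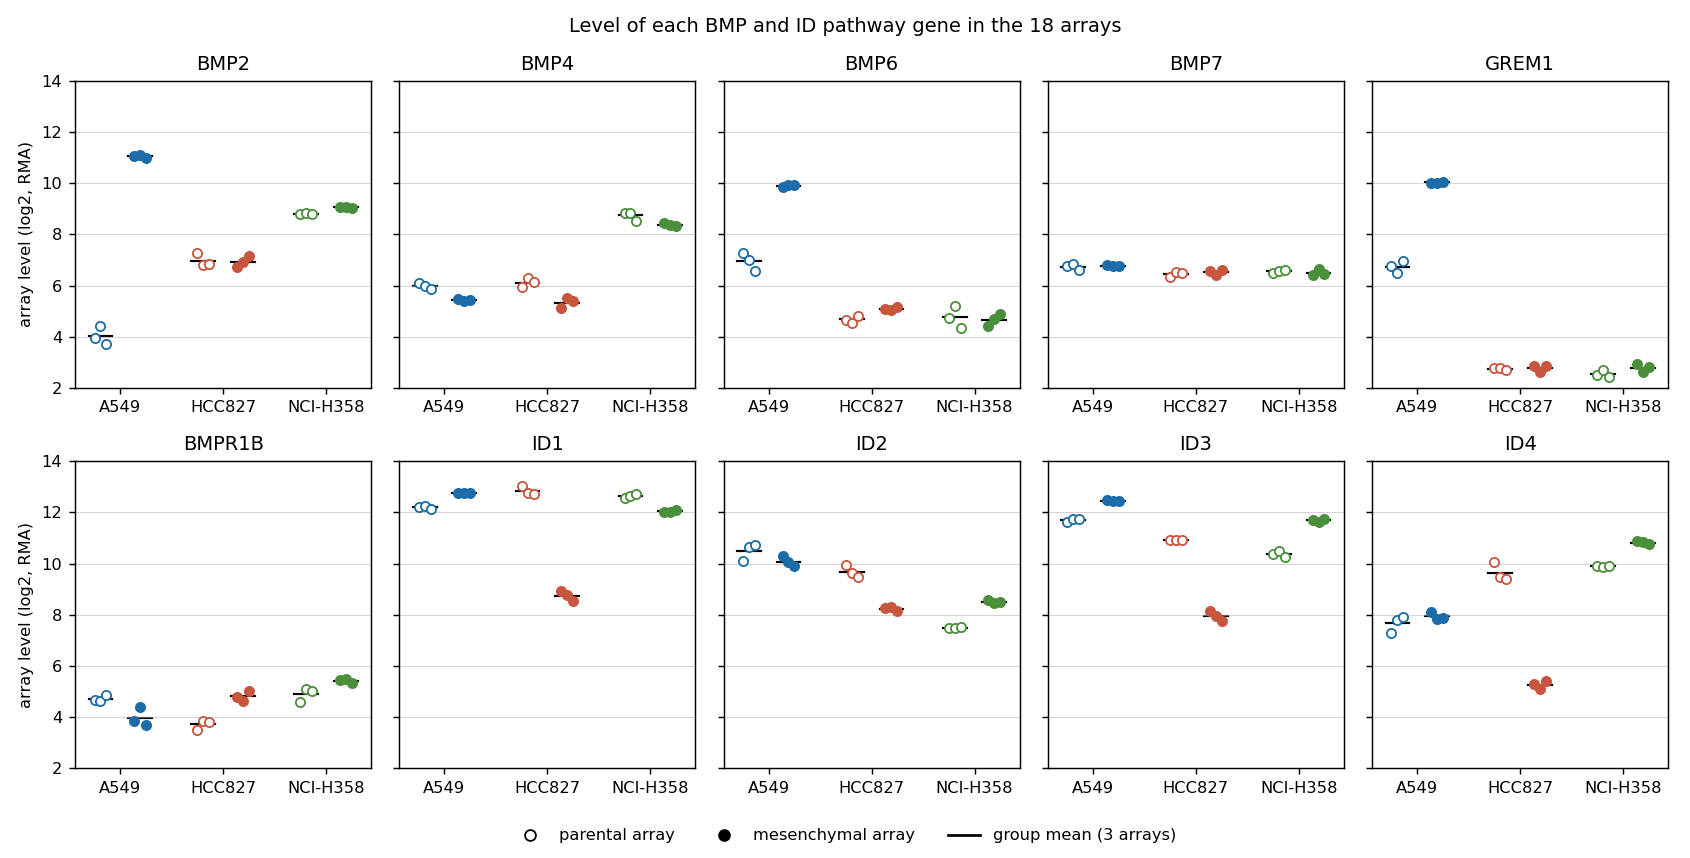
Log2 level of each of the 10 genes on every array, by cell line, with open points for the 3 parental arrays, filled points for the 3 mesenchymal arrays and a bar for the group mean. BMP2, BMP6 and GREM1 separate the mesenchymal A549 arrays from all others, whereas ID1, ID3 and ID4 separate the mesenchymal HCC827 arrays.

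Among the ligands, BMP2 (Entrez gene 650, probe set 205290_s_at) had group means from 4.01 to 11.05 on the log2 scale. In A549 cells its log2 level was 3.93, 4.40 and 3.70 on the parental arrays and 11.06, 11.10 and 11.00 on the mesenchymal arrays. The groups lay far apart, with a log2 change of 7.04 (SE 0.15, adjusted p = 8.24e-16, limma), a 132-fold rise. Detection calls were not used here, so the low parental A549 level cannot be told apart from background signal. The size of the fold depends on that level. In HCC827 cells the levels were 7.28, 6.79 and 6.83 in parental and 6.71, 6.91 and 7.16 in mesenchymal cells, and the groups overlapped. Their difference was -0.04 with a 95% interval of -0.36 to 0.28. In NCI-H358 cells BMP2 was already high, at 8.79, 8.82 and 8.79 before and 9.06, 9.07 and 9.04 after EMT, a log2 change of 0.26 (adjusted p = 0.21, limma). The order of the group means ran from mesenchymal A549 over NCI-H358 and HCC827 to parental A549. Within NCI-H358 and within HCC827 the parental and mesenchymal groups, neighbours in that order, did not pass in the fit of all arrays, while all other neighbours did. The NCI-H358 arrays did not overlap, and a limma fit of that line alone gave an adjusted p of 0.0079 for the same change of less than 2-fold.

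BMP6 (Entrez gene 654, probe set 206176_at), a ligand also known from the control of iron metabolism, rose in A549 as well. Its log2 level was 7.28, 7.01 and 6.55 on the parental A549 arrays and 9.86, 9.92 and 9.95 on the mesenchymal arrays. The log2 change was 2.96 (SE 0.19, adjusted p = 9.84e-10, limma), a 7.77-fold rise. Every mesenchymal array was above every parental array. In HCC827 cells the levels were 4.66, 4.54 and 4.82 before and 5.07, 5.06 and 5.15 after EMT, with a log2 change of 0.42 (adjusted p = 0.0834, limma). These HCC827 arrays did not overlap. A limma fit of HCC827 alone gave an adjusted p of 0.0071 for this change, which was under 2-fold. In NCI-H358 cells they ran from 4.33 to 5.20 and from 4.42 to 4.87, and the groups overlapped. The 4 groups of HCC827 and NCI-H358 were neighbours at the bottom of the order, and none of these neighbours differed by limma in the fit of all arrays.

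GREM1 (Entrez gene 26585, probe set 218469_at), the antagonist, rose in A549 too. Its log2 level was 6.78, 6.48 and 6.95 on the parental and 10.01, 10.03 and 10.06 on the mesenchymal A549 arrays, a log2 change of 3.30 (SE 0.11, adjusted p = 2.20e-13, limma) or a 9.85-fold rise. The groups did not overlap. On the 12 arrays of HCC827 and NCI-H358 the level stayed between 2.42 and 2.91, close to the lowest value in the table. Detection calls were not used here, so a level there cannot be told apart from background signal. The log2 change was 0.04 in HCC827, with a 95% interval of -0.20 to 0.27, and 0.22 in NCI-H358, with an interval of -0.01 to 0.46.

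BMP4 and BMP7 did not pass in any line. BMP4 (Entrez gene 652, probe set 211518_s_at) was lower in mesenchymal cells of all 3 lines, but by less than 2-fold. The log2 change was -0.55 in A549 (adjusted p = 0.000776, limma), -0.78 in HCC827 (adjusted p = 1.80e-05, limma) and -0.37 in NCI-H358 (adjusted p = 0.0141, limma). The parental and mesenchymal arrays did not overlap in any of the lines. The larger contrast was between lines, since BMP4 lay between 8.32 and 8.86 on the NCI-H358 arrays and between 5.11 and 6.30 on all others. BMP7 (Entrez gene 655, probe set 211260_at) had a mean level of 6.44 to 6.77 in the 6 groups. Its log2 changes of 0.03, 0.08 and -0.05 had 95% intervals that all stayed within -0.23 and 0.26. Other probe sets of BMP7 were not analysed here.

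The receptor BMPR1B (Entrez gene 658, probe set 210523_at), a type I receptor for BMPs, was read at low levels throughout, from 3.50 to 5.49. Without detection calls these levels cannot be told apart from background signal, which also limits its differences between lines. In HCC827 cells it was 3.50, 3.83 and 3.81 before and 4.79, 4.62 and 5.03 after EMT. This was a log2 change of 1.10 (SE 0.17, adjusted p = 2.66e-05, limma), just past the 2-fold limit. The call was lost without HCC827.Parental replicate 1, at 0.992, and without HCC827.EMT replicate 3, at 0.993. In A549 the log2 change was -0.74 (adjusted p = 0.00139, limma) and in NCI-H358 0.52 (adjusted p = 0.0173, limma), both under 2-fold.

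The 4 ID genes formed the other group. They are shown with the bases upstream of their start sites because all 4 genes fell in HCC827. The windows are RefSeq sequences of build GRCh38.p14 and hold the 250 bases before the start, 5′ to 3′ on the strand of the gene. They lie at chr20:31605039-31605288 (plus strand) for ID1, chr2:8681806-8682055 (plus strand) for ID2, chr1:23559502-23559751 (minus strand) for ID3 and chr6:19837120-19837369 (plus strand) for ID4. Capitals mark matches, on either strand, to the CCAAT box, to the sequence CAGAC, which is part of a SMAD binding element, or to the E-box sequence CAGCTG.
ID1: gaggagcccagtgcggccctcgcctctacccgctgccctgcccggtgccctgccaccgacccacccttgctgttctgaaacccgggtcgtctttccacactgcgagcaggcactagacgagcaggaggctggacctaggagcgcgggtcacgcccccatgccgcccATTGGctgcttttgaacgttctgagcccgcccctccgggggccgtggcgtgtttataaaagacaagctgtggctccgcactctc
ID2: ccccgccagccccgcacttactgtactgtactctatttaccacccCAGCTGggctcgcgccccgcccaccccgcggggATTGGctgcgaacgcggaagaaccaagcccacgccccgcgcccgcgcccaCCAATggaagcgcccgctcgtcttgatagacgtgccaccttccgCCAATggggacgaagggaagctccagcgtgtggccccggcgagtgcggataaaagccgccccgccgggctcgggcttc
ID3: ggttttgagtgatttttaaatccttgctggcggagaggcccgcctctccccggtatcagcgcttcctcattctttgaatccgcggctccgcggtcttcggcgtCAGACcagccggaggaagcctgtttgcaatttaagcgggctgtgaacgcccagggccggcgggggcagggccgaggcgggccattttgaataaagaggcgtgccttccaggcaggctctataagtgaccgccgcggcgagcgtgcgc
ID4: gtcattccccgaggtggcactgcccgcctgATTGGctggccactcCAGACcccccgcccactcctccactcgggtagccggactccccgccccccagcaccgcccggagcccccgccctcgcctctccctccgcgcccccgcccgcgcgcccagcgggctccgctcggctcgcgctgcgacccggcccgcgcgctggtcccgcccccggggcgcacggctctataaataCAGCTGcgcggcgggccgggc

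CCAAT was found upstream of ID1, ID2 and ID4, and in 32% of the 35116 windows of this length in the table. It was added after the windows had been read. CAGAC was found upstream of ID3 and ID4 (38% of all windows) and CAGCTG upstream of ID2 and ID4 (14%). GGCGCC, a GC-rich site of BMP SMADs, and CACCTG, another E-box, were searched too and matched none of the 4 windows, against 16.4% and 17.5% of all windows. The matches describe these letters only. Bases outside the windows, such as those further upstream, were not searched. A motif without a match here may therefore still be present elsewhere near these genes. None of the motifs searched was common to the 4 windows.

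ID1 (Entrez gene 3397, probe set 208937_s_at), the family member most often used as a readout of BMP signalling, fell in HCC827 cells. Its log2 level was 13.04, 12.77 and 12.71 on the parental arrays and 8.94, 8.77 and 8.53 on the mesenchymal arrays. The log2 change was -4.09 (SE 0.10, adjusted p = 2.00e-15, limma), a 17.1-fold fall. All 15 other arrays lay between 12.03 and 13.04, so the mesenchymal HCC827 arrays stood alone at the bottom. In A549 the log2 change was 0.57 (adjusted p = 1.00e-04, limma) and in NCI-H358 -0.59 (adjusted p = 7.33e-05, limma). Both were under 2-fold and opposite in sign, and the groups did not overlap in either line.

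ID3 (Entrez gene 3399, probe set 207826_s_at) fell in HCC827 and rose in NCI-H358. In HCC827 cells its log2 level was 10.93, 10.91 and 10.93 before and 8.16, 7.93 and 7.74 after EMT, a log2 change of -2.98 (SE 0.09, adjusted p = 3.89e-14, limma) or a 7.88-fold fall. In NCI-H358 cells the level was 10.37, 10.49 and 10.26 before and 11.71, 11.61 and 11.76 after EMT. This was a rise of 1.32 on the log2 scale (adjusted p = 1.79e-09, limma), or 2.49-fold, and the groups did not overlap. In A549 the log2 change was 0.77 (adjusted p = 1.76e-06, limma), a 1.70-fold difference under the limit.

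ID4 (Entrez gene 3400, probe set 209291_at) fell in HCC827 as well. In HCC827 cells its log2 level was 10.04, 9.46 and 9.39 on the parental and 5.30, 5.09 and 5.41 on the mesenchymal arrays. The log2 change was -4.37 (SE 0.16, adjusted p = 5.23e-13, limma), a 20.6-fold fall. The low mesenchymal level was not separated from background, and the size of the fold depends on it. In NCI-H358 cells the level was 9.91, 9.87 and 9.89 before and 10.86, 10.84 and 10.77 after EMT, a log2 change of 0.93 (adjusted p = 0.000118, limma), which missed the 2-fold limit. The groups did not overlap in HCC827 or NCI-H358. In A549 they did, at 7.30, 7.78 and 7.89 against 8.11, 7.84 and 7.89, with a log2 change of 0.29 (adjusted p = 0.157, limma).

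ID2 (Entrez gene 3398, probe set 201566_x_at) fell in HCC827 and rose in NCI-H358. In HCC827 cells its log2 level was 9.94, 9.63 and 9.48 before and 8.25, 8.29 and 8.16 after EMT. This was a log2 change of -1.45 (SE 0.14, adjusted p = 2.18e-07, limma). In NCI-H358 cells it was 7.48, 7.47 and 7.52 before and 8.56, 8.44 and 8.51 after EMT, a log2 change of 1.02 (adjusted p = 1.78e-05, limma). That rise was 2.02-fold and fell to 0.988 on the log2 scale without NCI-H358.EMT replicate 1, which ended the call. In A549 cells the groups overlapped, with a log2 change of -0.42 (adjusted p = 0.0254, limma). A limma fit of A549 alone gave an adjusted p of 0.0978 for this change. In limma fits of all lines that each omitted 1 array, the adjusted p reached up to 0.131. The suffix of this probe set marks probes that can also bind other transcripts, and such signal was not separated.

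**Figure D2:**
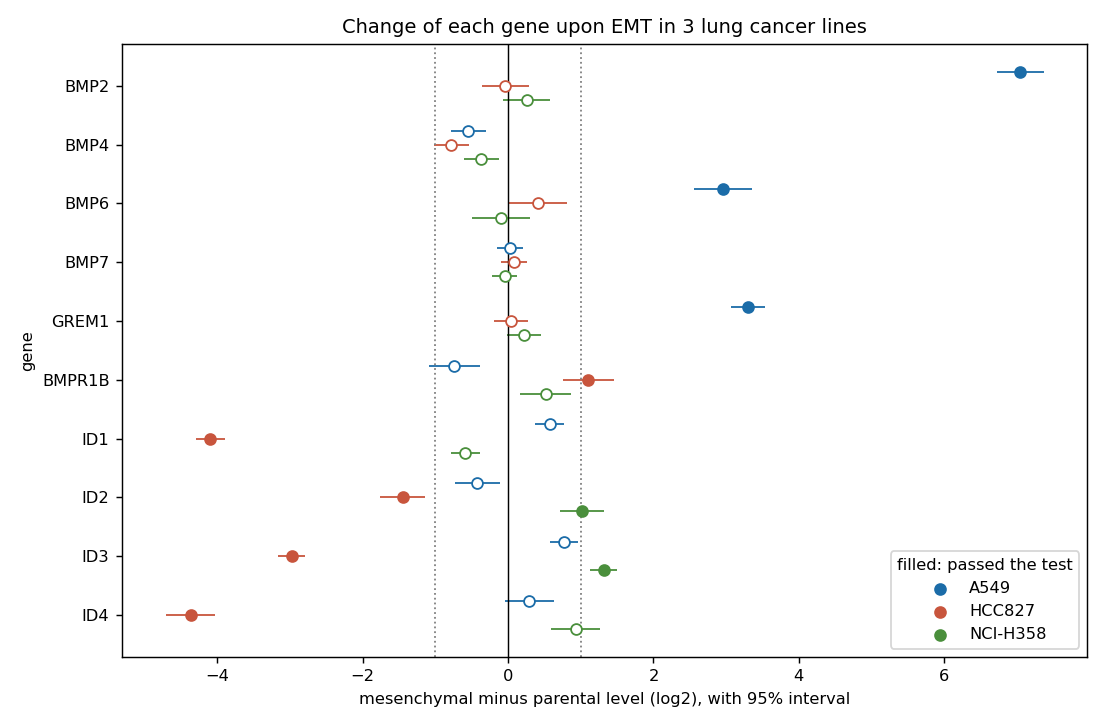
Mesenchymal minus parental log2 level of each gene in each line with its 95% interval from limma, filled where the gene passed the test, with dotted lines at 2-fold. The filled points of A549 are BMP2, BMP6 and GREM1 on the right, and those of HCC827 are the 4 ID genes on the left and BMPR1B.

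The second comparison asked whether the change upon EMT differed between the lines. The difference itself was tested by limma, at an adjusted p below 0.05. Between HCC827 and A549 the change differed for 8 of the 10 genes, where 42.2% of all genes differed, and between NCI-H358 and A549 for 8 as well, against 42.8%. Between NCI-H358 and HCC827 it differed for 4, a count near the share of 37.9% of all genes, and these were the 4 ID genes. For ID4 the log2 change in NCI-H358 minus that in HCC827 was 5.30 (adjusted p = 1.81e-11, limma), and for BMP2 the change in HCC827 minus that in A549 was -7.08 (adjusted p = 2.41e-13, limma). BMP4 and BMP7 did not pass between any pair of lines. For BMP7 the difference of the change between HCC827 and A549 was 0.05, with a 95% interval from -0.20 to 0.30. The difference of ID4 between NCI-H358 and A549, 0.64 (adjusted p = 0.0293, limma), did not pass in 8 of the 18 fits that each omitted 1 array. The omitted arrays in those 8 were replicates 2 and 3 of parental and of mesenchymal A549, replicates 2 and 3 of parental NCI-H358 and replicates 1 and 2 of mesenchymal NCI-H358, and over all 18 fits the value lay between 0.52 and 0.82. Between NCI-H358 and HCC827 the difference just missed the threshold for BMP4 (0.41, adjusted p = 0.0535) and BMPR1B (-0.58, adjusted p = 0.0627), and each of them passed in 4 of the 18 fits.

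The lines were also compared within each state, by the 2-fold rule in either direction. Between parental HCC827 and A549 cells 4 of the 10 genes differed, against 18.8% of all genes. Between parental NCI-H358 and A549 cells 7 differed (20.4%), and between parental NCI-H358 and HCC827 cells 4 (15.2%). BMP6 was 4.83-fold lower in parental HCC827 than in parental A549 cells (adjusted p = 1.16e-08, limma). The low mean of 4.68 in parental HCC827 was not separated from background. The mean log2 level of GREM1 was 6.74 in parental A549 cells, against 2.74 and 2.55 near the low end of the scale in parental HCC827 and NCI-H358 cells. For BMP2 the parental order was the reverse, as it was 27.6-fold higher in parental NCI-H358 than in parental A549 cells (adjusted p = 3.19e-14, limma). That fold rests on the low BMP2 level of parental A549 cells, which was not separated from background. ID4 was lower in parental A549 than in the other parental lines, and ID2 was lowest in parental NCI-H358. ID1 differed between parental lines by at most 0.64 on the log2 scale.

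Among mesenchymal cells 7 genes differed between HCC827 and A549, against 17.2% of all genes, 7 between NCI-H358 and A549 (19.8%) and 5 between NCI-H358 and HCC827 (15.2%). BMP6 was 28.1-fold lower in mesenchymal HCC827 than in mesenchymal A549 cells (adjusted p = 6.10e-13, limma). The mean log2 level of GREM1 was 10.04 in mesenchymal A549 cells against 2.78 and 2.77 in mesenchymal HCC827 and NCI-H358 cells, where no fold is given because the signal was not separated from background. ID4 was 47.1-fold higher in mesenchymal NCI-H358 than in mesenchymal HCC827 cells (adjusted p = 1.47e-14, limma). The parental cells of these lines differed by only 0.26 for ID4 on the log2 scale (adjusted p = 0.199, limma). The folds of BMP6 and ID4 rest on low mesenchymal HCC827 means, 5.09 and 5.27, which were not separated from background either. ID2 was the exception in the family, since its mesenchymal levels in NCI-H358 and HCC827 did not differ (0.27, adjusted p = 0.13, 95% interval -0.03 to 0.58).

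The rest of the pathway was described from lists of ligands, receptors, antagonists, SMADs and targets. By the same rule 4.15%, 4.89% and 3.96% of all genes rose in A549, HCC827 and NCI-H358, and 3.87%, 6.58% and 5.42% fell. These shares apply beside the counts of each list, and at such shares a short list can hold 0 calls. Of the 9 other BMP and GDF ligands measured, 0 were called in any line by limma, and the median log2 change of the list was 0.13, -0.03 and 0.01 in A549, HCC827 and NCI-H358. Among 10 receptors and co-receptors, BMPR2, the type II receptor for BMPs, rose in all 3 lines, by 1.86, 1.38 and 1.34 in A549, HCC827 and NCI-H358 on the log2 scale (adjusted p = 4.29e-11, 1.53e-09 and 2.88e-09). The co-receptors RGMA in A549 (2.52) and RGMB in HCC827 (1.08) were the other 2 calls, named here after their values were seen. The median log2 change of this list was 0.30, 0.12 and 0.20, against -0.02, 0.01 and 0.02 over all genes.

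NOG (noggin), another secreted BMP antagonist, rose in all 3 lines. Its mean log2 level went from 4.82 to 6.27 in A549, from 5.10 to 7.61 in HCC827 and from 3.78 to 6.50 in NCI-H358 (adjusted p = 5.18e-05, 5.95e-08 and 2.84e-08). Of the 14 secreted antagonists and modulators measured, NOG and SOST rose in NCI-H358, NOG alone in HCC827, and NOG rose while BMPER fell in A549. SOST and BMPER were named after their values were seen. The median log2 change of the list was 0.00, 0.11 and 0.02 in A549, HCC827 and NCI-H358.

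Among 9 SMADs and intracellular brakes, the inhibitory SMAD7 rose in HCC827 (1.98) and NCI-H358 (1.32) and had a log2 change of 0.81 in A549. SMAD9, named after its values were seen, is a transducer of BMP signals and went in opposite directions. Its mean log2 level went from 7.53 to 5.44 in HCC827, a log2 change of -2.09 (adjusted p = 3.55e-12, limma), and from 4.67 to 6.25 in A549, a rise of 1.59 (adjusted p = 1.68e-10, limma). In NCI-H358 it was 4.84 and 5.35. SMAD1, another transducer, had log2 changes of -0.22, -0.73 and 0.33 in A549, HCC827 and NCI-H358, all under 2-fold. SMURF2, a ubiquitin ligase, rose in HCC827 and the decoy receptor BAMBI in A549, both also named after their values were seen. The list had a median log2 change of 0.69, 0.20 and 0.33 in A549, HCC827 and NCI-H358.

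Other genes that respond to BMPs rose or were not called. Of 7 measured, 3 rose in A549 cells, 4 in HCC827 cells and 1 in NCI-H358 cells, where 4.15%, 4.89% and 3.96% of all genes rose, and 0 fell. HEY1, a transcription repressor, rose in A549 by 2.52 and in HCC827 by 2.06 on the log2 scale. RUNX2, a regulator of bone formation, rose in the same lines by 1.49 and 2.43, as did MSX2 by 1.18 and 1.05. MSX1 rose in HCC827 by 1.23 and in NCI-H358 by 1.08. The median log2 change of this list was 0.42 in A549 cells, 1.05 in HCC827 cells and 0.22 in NCI-H358 cells, and over all genes it was -0.02, 0.01 and 0.02. Several of these genes also respond to signals other than BMPs. The list was chosen with earlier results of these data known, so its counts do not test an excess.

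The E proteins, the partners of the ID proteins, changed unequally. TCF4 rose in all 3 lines, by 1.88, 2.56 and 2.42 in A549, HCC827 and NCI-H358 (adjusted p = 3.29e-09, 4.06e-11 and 1.08e-10). TCF12 rose in NCI-H358 by 1.18 and had log2 changes of -0.18 and -0.39 in A549 and HCC827, and TCF3 ranged from -0.33 to 0.12. TCF4 thus rose where the ID genes fell, in HCC827, and also where they did not. Of 5 tissue-specific bHLH factors, TWIST2 fell in A549 (-1.23) and no other call was made. TWIST2 and TCF12 were named after their values were seen.

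**Figure D3:**
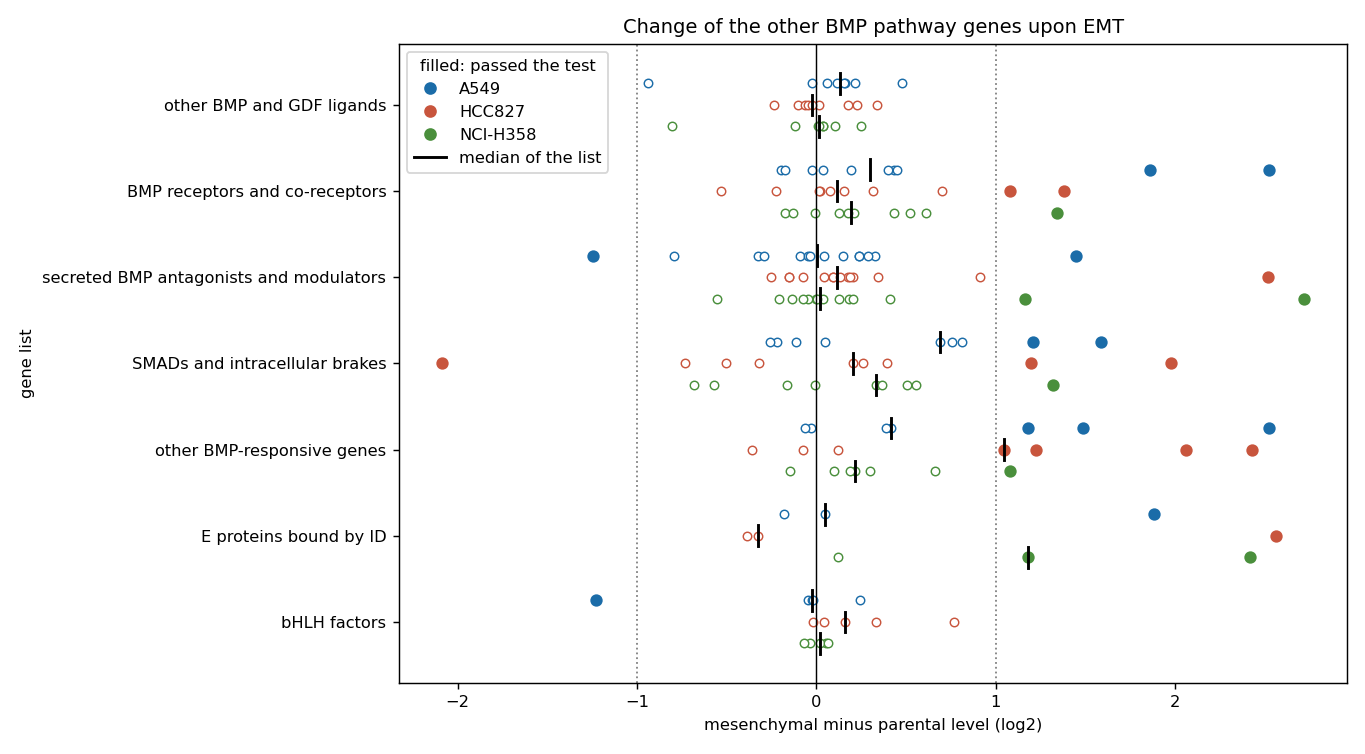
Mesenchymal minus parental log2 level of the measured genes of 7 lists in each line, filled where a gene passed the test, with a bar at the median of the list and dotted lines at 2-fold. Most genes lie within 2-fold of 0, and the filled points to the right include BMPR2, NOG and TCF4, which rose in all 3 lines.

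The genes of the table whose profile over the 18 arrays was most like that of each member were also listed, among 9059 genes whose group means spanned at least 1 on the log2 scale. The arrays fall into 6 groups, so these correlations mostly describe group levels and carry no p. For GREM1 the highest Pearson r were those of RNF182 and FBXL21 (0.997 and 0.996), and for BMP6 those of AGTR1 (0.993) and RND1 (0.990). BMP2 was most like BHLHE41 (0.970) and BMP4 most like ZNF891 (0.992). ID1 was most like LACTB2 (0.949) and MAP2K1 (0.947), ID3 most like DYX1C1 (0.941) and ID4 most like C16orf48 (0.937). For ID2 the highest were IQCE (0.98), KAT2B and SMAD1 (0.98 each), and for BMPR1B the highest was B3GALT6 (0.916). Naming was uneven, since the gene at rank 3 is given for ID2 alone, where it is SMAD1. BMP7 had too small a span to be ranked.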

How the data were processed

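RNA from 18 samples was hybridized to Affymetrix U133 Plus 2.0 arrays. The authors normalized the arrays with RMA and deposited log2 values with 1 probe set for each of 19849 genes. The rule for choosing the probe set, the genome build and the annotation version are not given in the sources used here. All 18 value columns bear a sample title, and groups were taken from the source names. Gene IDs were looked up in the RefSeq gene table (19326 matched), which was used for older names in the lists. Protein sequences were not used here.

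The deposited log2 values were fitted with limma 3.58.1 in R 4.3.3 (lmFit, eBayes) in 1 model of 6 groups without covariates, since the labels pair no arrays. P values were adjusted over all genes by the Benjamini-Hochberg method. Calls needed an adjusted p below 0.05 and a difference of more than 2-fold, and differences between lines an adjusted p below 0.05. With 3 arrays against 3, an exact two-sided permutation test cannot give a p below 0.1, so none is quoted. The number of arrays limits the precision. Data of 19849 genes were simulated for mesenchymal against parental HCC827 cells. The rule called 99 of 100 genes changed by 1.5 and 100 of 100 changed by 3 on the log2 scale, with 0 false calls. Both changes lay past the 2-fold limit, and the noise was drawn independently for each value. The result thus checks only that the steps run as intended. It does not bear on calls near the limit or on how well these samples represent their lines. Promoter windows came from RefSeq (GRCh38.p14), where 8 of the 10 genes have 1 or more.

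The genes named were the 10 members, marker genes, genes of each list called the same way in at least 2 lines (at most 4 per list) and the genes with the most similar profiles. Others are said to be chosen after their values were seen. The members and lists were chosen with earlier results of these data known. Alternatives were another call rule, an intensity trend, separate fits, the methods' t-test, a filter on dim probe sets, 2 further normalizations, array weights, and arrays left out. A few items are not reported here.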

Additional observations from a re-analysis of the deposited data

Results flagged for a closer look

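The change upon EMT differed between lines for 20 of the 30 gene and line pairs tested, by limma's test of the difference on the log2 scale. The counts were 8, 8 and 4 of 10 for HCC827 against A549, NCI-H358 against A549 and NCI-H358 against HCC827, where 42.2%, 42.8% and 37.9% of all genes differed. The last of these counts was near its share. The change in HCC827 minus that in A549 was -7.08 for BMP2, -2.54 for BMP6, -3.26 for GREM1 and 1.84 for BMPR1B. For the ID genes it was -4.67 for ID1, -1.03 for ID2, -3.75 for ID3 and -4.66 for ID4.

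The change in NCI-H358 minus that in A549 was -6.79 for BMP2, -3.05 for BMP6, -3.08 for GREM1 and 1.26 for BMPR1B. It was -1.16 for ID1, 1.44 for ID2, 0.55 for ID3 and 0.64 for ID4. The comparisons between lines share arrays. The change in NCI-H358 minus that in HCC827 was 3.51 for ID1, 2.47 for ID2, 4.30 for ID3 and 5.30 for ID4. Among the ID genes, ID2 and ID3 passed the 2-fold rule in both lines with opposite signs.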

How the results depend on the processing

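Of the member counts, those of BMP2, BMP6 and GREM1 rising in A549 and of the 4 ID genes falling in HCC827 held in every alternative with the 2-fold rule. Without a fold threshold, 5 genes were higher and 3 lower in A549, and 4 higher and 2 lower in NCI-H358. Under the thresholds of the study 0 were higher in HCC827 and 0 in NCI-H358. The 1 gene higher in HCC827, BMPR1B, was lost with the filter on dim probe sets, which leaves it out, with array weights and without the 3 parental arrays whose title numbers stand apart (0 each). With 1 array left out, the count ranged from 0 to 1 there and from 1 to 2 for genes higher in NCI-H358. The number of members whose change differed ranged from 7 to 8 between NCI-H358 and A549 and from 4 to 6 between NCI-H358 and HCC827.

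Signs turned only in values near 0 that were not called. BMP2 in HCC827 was 0.024 with array medians subtracted, 0.048 with quantile normalization, 0.0093 with array weights and 0.12 without the 3 parental arrays, and ranged from -0.16 to 0.12 with 1 array left out. BMP7 in A549 was -0.024 with array weights and ranged from -0.035 to 0.087. The difference of BMP7 between HCC827 and A549 was -0.012 without the 3 parental arrays and ranged from -0.0089 to 0.11. BMP6 in NCI-H358 ranged from -0.31 to 0.13. The causes of these shifts were not tested. Signal near the low end of the scale limits what these arrays can show, as for BMPR1B, for GREM1 outside A549 and for BMP2 in parental A549.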

Other observations

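ID2 and ID4 deviated together between arrays of the same group in parental and mesenchymal A549 and in parental HCC827. On replicates 2 and 3 of mesenchymal HCC827 they went opposite ways, with 0.05 and -0.08 for ID2 and -0.18 and 0.15 for ID4. In the NCI-H358 groups the deviations of both genes lay between -0.063 and 0.058 and did not share their signs on every array. On A549.Parental replicate 1, ID2 was 0.40 and ID4 0.36 below the group mean on the log2 scale, deviations of -0.40 and -0.36. On HCC827.Parental replicate 1 they were 0.26 and 0.41 above it. On NCI-H358.Parental replicate 1 the deviations were -0.01 and 0.02. These 3 arrays bear title numbers apart from the other arrays of their groups. Over the 18 arrays the deviations of ID2 and ID4 had a Pearson r of 0.83, the highest of the 6 pairs of ID genes, and those of ID1 and ID3 of 0.56. These values describe arrays that share their groups' means, and no p is given.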
